A study of Mus musculus with 8 samples.

Results

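Cornification-positive medullary thymic epithelial cells (mTEC) of the 16-week mouse thymus were examined, a set proposed as keratinocyte-like mTEC. A cell was a member when it was epithelial, carried fewer than 2 UMIs of Aire, had less than 0.1% of its UMIs in the cortical genes Psmb11 and Prss16, and held at least 1 UMI of at least 2 of Krtdap, Sbsn, Ivl, Spink5, Asprv1 and Rptn. A UMI is a molecular tag that counts captured transcripts rather than reads. Epithelial meant at least 3 UMIs of Epcam, Krt8, Krt18 and Krt5 together, and more than of the collagen genes Col1a1, Col1a2 and Col3a1 with Dcn. The rule found 293 cells, 77 in well 1 and 216 in well 2, among 4208 epithelial cells, 6677 cells of the 16-week thymus and 9953 cells of the whole series. They made up 6.96% of epithelial cells (95% exact interval 6.21 to 7.77), 6.33% in well 1 and 7.22% in well 2.

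The stroma came from untreated C57BL/6 mice of 16 weeks or 1 week, and each cell was read for its transcripts and for 27 surface antibody tags (CITEseq). The thymi of an age were pooled, the cells of both ages were depleted of CD45+ cells and sorted as EpCAM+ and EpCAM- fractions into 1 tube, and the single tube of an age was loaded on 2 wells of the droplet device. Each age was therefore 1 sample and its 2 wells were technical repeats, so no test between groups or ages was possible. The proportions of epithelial and other cells were set by the sort. Values are given per well, and intervals cover counting error only. The 16-week wells held 1939 and 4738 cells with 21281389 and 45480790 UMIs, and 0 members shared their cell barcode with another library, against 15 barcodes that did so in the series. Members were set beside 1555 epithelial cells with at least 2 Aire UMIs (Aire cells, 397 and 1158 by well, not held to the limit on the cortical genes), 2176 cells that met every other condition but held fewer than 2 of the 6 genes (other low-Aire cells, 687 and 1489), and 2264 cells in which the collagen genes dominated (fibroblast-rule cells, 660 and 1604), a group outside the epithelium.

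In stratified epithelia, keratinocytes leave the basal layer, replace the basal keratins with suprabasal keratins, and build a cornified envelope from proteins cross-linked by transglutaminases while proteases and their inhibitors time the shedding of the dead cells. A part of the mTEC lineage that has passed the Aire stage is known to take on this programme, and swirls of such cells (Hassall's corpuscles) are a feature of the medulla. Aire itself drives transcription of tissue-restricted genes in mTEC, so single transcripts of keratinocyte genes can also be found in cells that are not keratinocyte-like.

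Promoters of 5 of the 6 rule genes, all but Spink5, are shown because the transcripts of these genes chose the cells. Krtdap (chr7:30787896-30791097) encodes a small secreted protein of differentiating keratinocytes, Sbsn (chr7:30751471-30756134) encodes suprabasin, and Dmkn (chr7:30763756-30781063), the gene of dermokine, lies between them. Ivl (chr3:92570902-92573735) encodes involucrin, a scaffold of the cornified envelope, and Rptn (chr3:93393699-93399442) encodes repetin, a fused-type S100 protein like filaggrin, whose gene Flg (chr3:93273523-93293686) lies nearby with that of hornerin, Hrnr (chr3:93319749-93333570). Asprv1 (chr6:86628164-86629710) encodes a retroviral-like protease of the upper epidermis that cuts profilaggrin, and Spink5 encodes a serine protease inhibitor of the same layers. All positions are in GRCm38. The 250 bases before each RefSeq start (GRCm38.p6) follow, 5′ to 3′, with capitals marking matches to the letters TGANTCA (AP-1), AACCNGTT (GRHL) or CCNCACCC (KLF) on either strand.
Krtdap, chr7:30787655-30787904, plus strand: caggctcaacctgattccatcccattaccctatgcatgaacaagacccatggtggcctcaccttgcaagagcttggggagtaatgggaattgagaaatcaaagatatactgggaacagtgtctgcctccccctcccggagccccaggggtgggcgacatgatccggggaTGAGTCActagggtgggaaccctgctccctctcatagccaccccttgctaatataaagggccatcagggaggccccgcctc
Sbsn, chr7:30751221-30751470, plus strand: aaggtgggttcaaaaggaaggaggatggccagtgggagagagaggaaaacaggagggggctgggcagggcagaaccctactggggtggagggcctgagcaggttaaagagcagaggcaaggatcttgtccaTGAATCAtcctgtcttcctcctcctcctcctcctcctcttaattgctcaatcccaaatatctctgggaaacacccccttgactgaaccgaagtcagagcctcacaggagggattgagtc
Ivl, chr3:92573736-92573985, minus strand: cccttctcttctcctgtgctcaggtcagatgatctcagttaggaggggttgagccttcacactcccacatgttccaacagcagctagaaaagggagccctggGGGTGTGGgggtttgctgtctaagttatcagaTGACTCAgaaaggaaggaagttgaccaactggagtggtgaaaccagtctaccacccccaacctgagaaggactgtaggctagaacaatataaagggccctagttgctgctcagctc
Rptn, chr3:93393449-93393698, plus strand: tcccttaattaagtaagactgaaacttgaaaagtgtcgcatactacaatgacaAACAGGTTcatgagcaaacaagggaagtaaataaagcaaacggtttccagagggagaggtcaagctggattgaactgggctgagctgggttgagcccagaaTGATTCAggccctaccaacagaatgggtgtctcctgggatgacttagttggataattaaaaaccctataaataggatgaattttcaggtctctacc
Asprv1, chr6:86627924-86628173, plus strand: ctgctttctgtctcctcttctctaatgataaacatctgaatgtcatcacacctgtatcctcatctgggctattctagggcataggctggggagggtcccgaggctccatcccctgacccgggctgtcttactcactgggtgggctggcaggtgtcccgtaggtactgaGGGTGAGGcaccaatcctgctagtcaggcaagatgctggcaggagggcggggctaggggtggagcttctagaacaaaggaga
An AP-1 match was in 4 of these 5 windows, in Krtdap, Sbsn, Ivl and Rptn, and in 6.73% of 32544 promoter windows of the same length. A GRHL match was in the Rptn window alone (1.79% of all windows), and a KLF match was in the windows of Ivl and Asprv1 (4867 of all windows). The Krt10 window held none of the 3. A match is a run of letters and does not show binding.

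The label was first checked against the cells. Of 2469 low-Aire cells, 1353 held none of the 6 genes, 823 held 1, 227 held 2, 51 held 3, 9 held 4, 3 held 5 and 3 held all 6. At least 2 of the genes were found in 11.9% of the low-Aire cells (95% interval 10.6 to 13.2), in 22.8% of Aire cells (20.7 to 24.9) and in 7.51% of fibroblast-rule cells (6.46 to 8.67). At these unequal depths the share was highest in Aire cells, and the genes were also found together in cells outside the epithelium. Median depth was 8594 UMIs in Aire cells, 4957 in low-Aire cells and 10079 in fibroblast-rule cells. It was 7330 in members and 4759 in other low-Aire cells. With every cell thinned to 2000 UMIs the shares were 3.56%, 3.34% and 1.37%. Aire cells (2.51 to 4.36) then no longer stood above low-Aire cells (2.87 to 4.37). Members with only 2 genes held a median of 2 UMIs of the 6 genes and at most 83, and cells just outside, with 1 gene, held a median of 1 and at most 96. In a cell with 2 UMIs of these genes, the cell's own transcripts could not be told apart from free RNA, which is present in every droplet. The whole set did not carry the name keratinocyte-like, and its cells are called cornification-positive here.

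**Figure D1:**
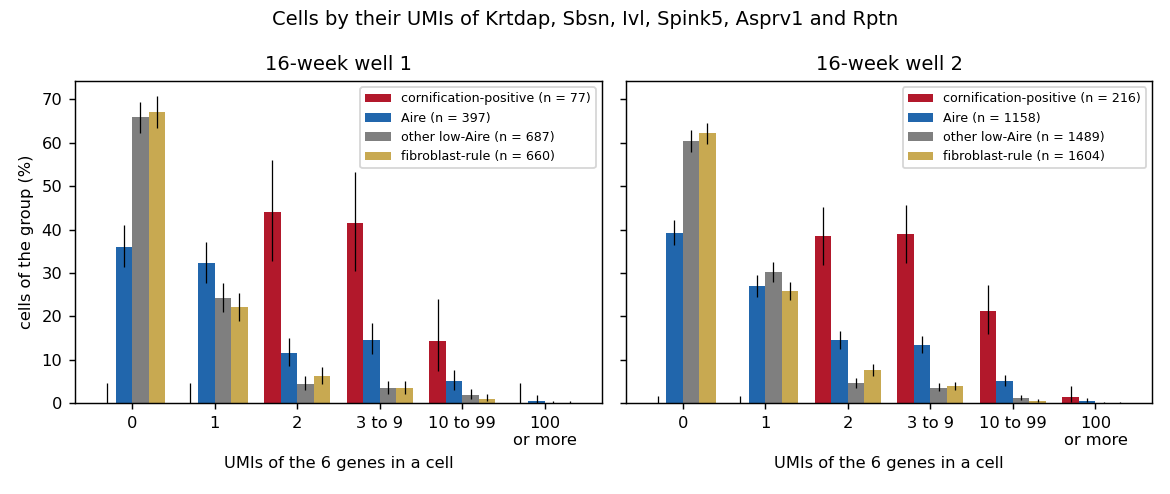
Share of cells (%, y axis, with exact 95% intervals) by their UMIs of the 6 rule genes together (x axis) in the 4 cell groups of each 16-week well. In both wells most members held 2 to 9 UMIs, and the bar for 10 to 99 UMIs stood at 14.3% of members in well 1 and 21.3% in well 2, above the other groups. The rule gives members at least 2 UMIs and other low-Aire cells at most 1 of the genes. The heights of the bars therefore follow in part from the rule.

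The levels of the rule genes chose the cells and are given as a description. Krtdap was at 188 CPM (UMIs of the gene per 1000000 UMIs of the group) in members of well 1 and 1264 in well 2, against 90.3 and 139 in Aire cells, 106 and 83.2 in other low-Aire cells, and 19.8 and 29.6 in fibroblast-rule cells. It was detected in 73.0% of members. Its level in well 2 was carried by few cells: the 5 cells with the most Krtdap held 83.1% of the UMIs of that well, against 59.5% for the top 5 of well 1, and 1 cell held 1654. Sbsn was at 34.5 and 235 in members, and at 20.7 and 17.1 in fibroblast-rule cells, above the 6.63 and 7.23 of other low-Aire cells. With up to 22 Sbsn UMIs in 1 fibroblast-rule cell, that group was not a background of free RNA alone for this gene. Ivl was the rarest of the 6, at 2.46 and 14.7 in members and 2.29 and 1.28 in Aire cells. Rptn, the fourth rule gene of the envelope list, was at 182 in members of well 1 and 150 in well 2, against 41.7 and 35.6 in Aire cells. The wells thus differed by several-fold for Krtdap, Sbsn and Ivl, with well 2 above well 1, while Rptn was somewhat higher in well 1.

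Of the rule genes outside the envelope list, Spink5 was at 112 and 296 in members, 63.9 and 96.4 in Aire cells and 6.27 and 20.8 in other low-Aire cells, and was detected in 44.0% of members. Asprv1 was at 61.5 and 244 in members, 37.8 and 63.3 in Aire cells and 6.09 and 13.5 in other low-Aire cells. The commonest pairs were Krtdap with Asprv1 in 83 members, Krtdap with Spink5 in 76 and Krtdap with Sbsn in 72.

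Krt10, the type I keratin of the suprabasal epidermis and a marker of the label, was not part of the rule. It was at 29.5 CPM in members of well 1 and 103 in well 2, against 38.3 and 37.4 in Aire cells, 29.6 and 33.3 in other low-Aire cells and 23.3 and 25.9 in fibroblast-rule cells. In well 1 the 4 groups were alike, and in well 2 members were above the rest. It was detected in 25.6% of members, 22.1% of Aire cells and 20.98% of fibroblast-rule cells, and 5 cells held 59.0% of the members' UMIs. Its partner Krt1 was at 3.69 and 11.3 in members and 4.84 and 7.33 in other low-Aire cells, a ratio of 1.46 whose interval (0.935 to 2.21) spans 1. Aire was at 0 UMIs in 143 members and at 1 UMI in 150. The rule limits Aire to at most 1 UMI in members and in other low-Aire cells, of which 51.2% and 42.3% held 1, so its level in these groups follows from the rule and from depth. Among fibroblast-rule cells, which the rule does not limit, 20.8% held at least 2 Aire UMIs, so that level of Aire was also reached outside the epithelium.

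**Figure D2:**
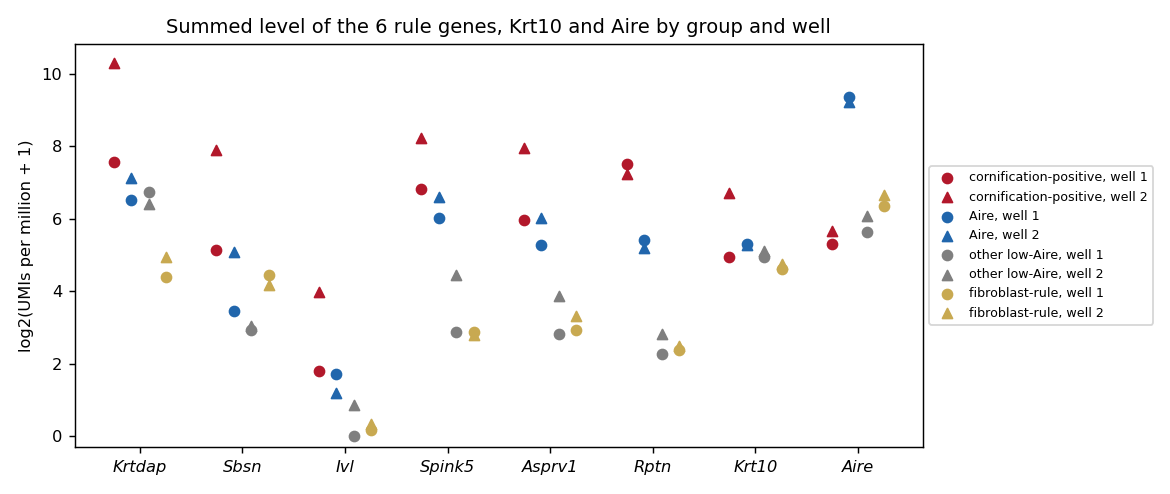
Summed level, as log2(CPM + 1) on the y axis, of the 6 rule genes, Krt10 and Aire in 4 cell groups, with a circle for well 1 and a triangle for well 2. Members of well 2 stand far above those of well 1 for Krtdap, Sbsn and Ivl (1264 against 188 CPM for Krtdap), and Krt10 in members of well 1 lies among the other groups.

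The members were far from uniform. By UMIs of the 6 genes, 117 members (39.9%) held exactly 2, and together 4.08% of the members' 5736 UMIs of these genes. Another 116 held 3 to 9, and 9.08% of the UMIs. The remaining 60 members (20.5%; 11 in well 1 and 49 in well 2) held at least 10 and carried 86.8%. These strong members were deeper, with a median of 12737 UMIs against 5810 and 6981.5 in the classes below. Strong expression was not particular to low-Aire cells: at least 10 UMIs were also found in 89 Aire cells, 30 other low-Aire cells, where they came from 1 gene, and 15 fibroblast-rule cells.

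In well 2, 3 cells were the most cornified. The first, with 30172 UMIs, had 6.98% of them in the 6 genes, with Krtdap at 1654, Dmkn at 406, Flg at 231 and Krt77 at 70 UMIs, but Krt10 at 0. The second, with 7712 UMIs, had 12.3% in the 6 genes, with Krtdap at 672 and Flg at 285. The third, with 9987 UMIs, had 71 of Krt10, 68 of Krt77, 73 of Calm4, 35 of Flg and 16 of Lor, the major envelope protein loricrin, and was the only one of the 3 with over 3 Krt10 UMIs. H2-Aa, an MHC class II chain that marks mature mTEC, was at 8, 6 and 5 UMIs in them. The only well 1 member with 5 or more of the genes looked different: of its 44 UMIs of the 6 genes 38 were Rptn, Flg and Krt10 were at 0, and H2-Aa was at 108 of 25306 UMIs.

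Summed levels of several genes outside the rule rose with the classes, but few cells carried some of them. Flg, the filaggrin precursor, was at 1.97 CPM in members with 2 UMIs of the 6 genes, 17.1 in those with 3 to 9 and 688 in the strong members, against 27.4 in Aire cells, 3.70 in other low-Aire cells and 1.85 in fibroblast-rule cells. The lowest class thus stood at the level of fibroblast-rule cells, and below Aire cells. Dmkn was at 32.5, 47.1 and 767, and Krt77, an epidermal keratin, was at 5.90, 8.12 and 248. Krt6a, a keratin of mucosa and of activated epidermis, was at 5.90, 14.6 and 81.7, above the 1.38 of Aire cells and the 2.86 of other low-Aire cells in every class. The basal keratin Krt14 was also highest in the strong members, at 960, 1157 and 1981. Lcn2, an antimicrobial protein that binds bacterial siderophores, did not follow the same steps, with 37.4, 245 and 222.

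Within the strong class the wells differed. The 3 most cornified cells were all in well 2 and carried much of its Flg, Krt77 and Krtdap. Flg was at 5.24 CPM in the 11 strong members of well 1 and 858 in the 49 of well 2, and Krt77 was at 15.7 and 306. Krtdap was at 456 and 3655, and Krt10 at 10.5 and 238. Ccl20, a chemokine of follicle-associated epithelium, went the other way, at 703 and 191. Of these genes, all but Ccl20 were thus lower in the strong members of well 1 than in those of well 2. Ly6d, named here after its values were seen, was at 121 and 1942 in them, against 239 and 262 in Aire cells.

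**Figure D3:**
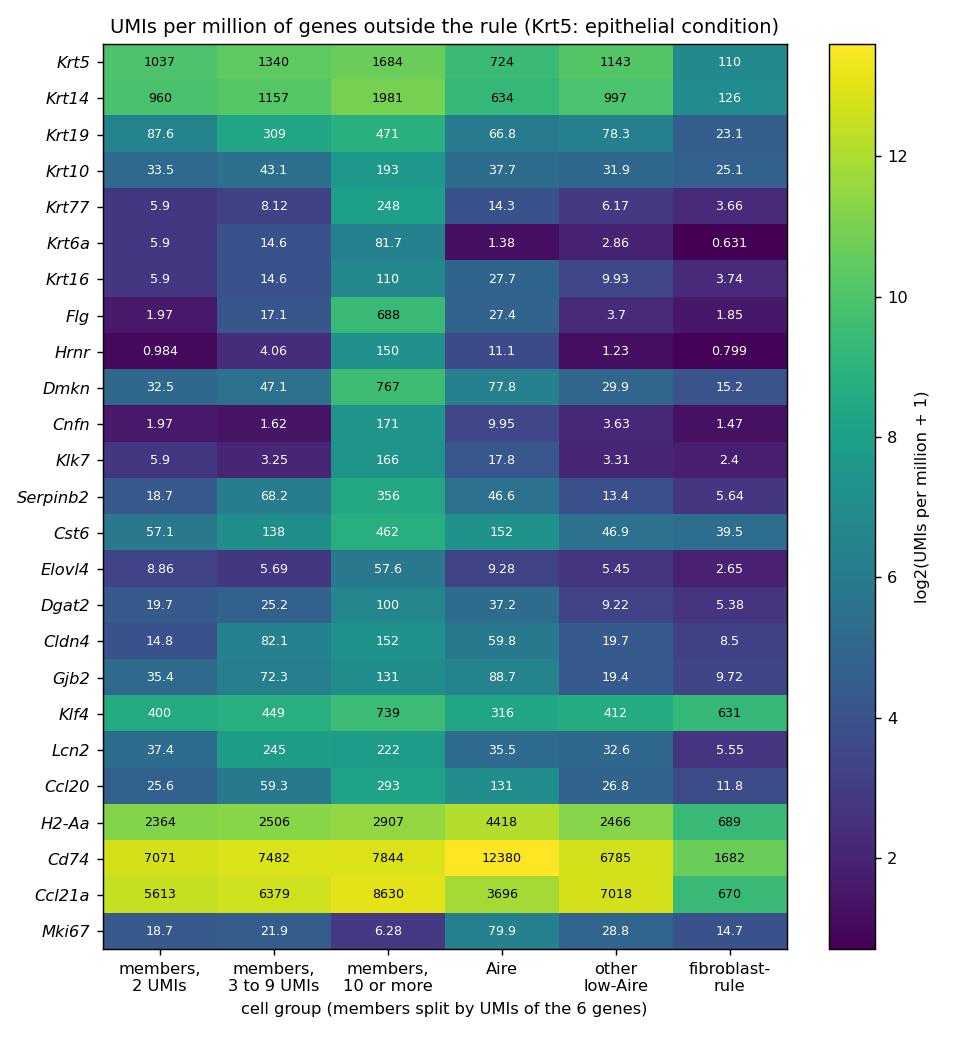
Heat map of CPM (numbers in the cells; colour, log2(CPM + 1)) of 25 genes in rows, in members split by their UMIs of the 6 rule genes and in the 3 comparison groups in columns, over both wells. Flg, Dmkn, Cnfn, Klk7 and Krt77 are highest in the column of members with 10 or more UMIs, while H2-Aa and Cd74 are highest in Aire cells. In that column 3 cells of well 2 carry much of the Flg, Dmkn and Krt77.

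Against the other low-Aire cells, the comparison within the remaining medullary epithelium, genes of several keratinocyte lists were higher in members. A gene was counted when the summed level in CPM differed at least 4-fold, in the same direction in both wells, with at least 10 cells of the higher group carrying it, and it was compared when both groups together held at least 20 UMIs. Of 16969 genes compared, 141 were higher (0.831%) and 212 lower (1.25%), and the median log2 ratio was -0.06. Since the members were chosen by related transcripts, these counts are descriptions. A higher gene needed 10 of 293 members, and a lower gene 10 of 2176 comparison cells. The counts in the 2 directions therefore cannot be set against each other. Of the cornified envelope list, whose rule genes were left out of all counts, 4 of 20 genes compared were higher and 0 lower, and the median log2 ratio of the 20 was 1.51.

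Among the counted envelope genes Flg had the largest ratio. It was at 23.4 CPM in members of well 1 and 277 in well 2, against 3.76 and 3.66, a 57.4-fold ratio (43.8 to 76.6) that rested on 20 members. Hrnr was 37.7-fold higher (3.69 and 61.1 against 1.08 and 1.32), and both Flg and Hrnr have repeats that make unique read placement uncertain. Dmkn was 8.61-fold higher (7.67 to 9.67; 44.3 and 329 against 26.0 and 32.1), and Evpl, the gene of envoplakin, 5.43-fold. The same order in both wells was a condition of the count. The folds were smaller in well 1: without well 2 the log2 ratio of Flg was 2.64, that of Dmkn 0.77 and that of Evpl 0.19. Without the 6 members that held 5 or 6 of the genes, the log2 ratio of Flg went from 5.84 to 3.48, that of Hrnr from 5.24 to 2.701 and that of Dmkn from 3.11 to 1.41.

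Keratins of several lists were higher. Of the epidermal suprabasal list, Krt77 (12.8-fold, 10.1 to 16.4), Krt78 (6.28-fold) and Krt79 (4.20-fold) were higher of 6 compared. Krt77 rested on 23 members and on well 2, at 6.15 and 104 CPM against 4.66 and 7.02, and Krt78 had a log2 ratio of 0.69 without well 2, while Krt79 was at 20.9 and 24.3 against 3.41 and 6.82 in the same order. Of the mucosal and activated list, 4 of 7 were higher. Krt6a was 11.2-fold higher (7.76 to 16.3), at 12.3 and 38.5 against 1.97 and 3.36, and could share reads with its near copy Krt6b. Krt23 was 9.29-fold higher, Krt16 4.06-fold, and Krt13, a keratin of mucosal stratified epithelium, 4.24-fold, with 36.9 in well 1 but 2.93 in well 2 against 2.51 and 2.85. Krt17, the most abundant of the list, was at 1396 and 2388 against 1433 and 1515. Of the basal list none of 7 was counted in either direction, with Krt14 at 1042 and 1442 against 939 and 1030. Of simple epithelial keratins, Krt19 came nearest, at 151 and 333 against 74.0 and 80.7 (3.67-fold).

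Of barrier proteases, inhibitors and transglutaminases, 4 of 20 were higher and 1 lower. Klk7, a kallikrein that cuts desmosomal proteins in the outermost layer, was at 3.69 and 69.1 against 2.87 and 3.56 (15.9-fold), and Klk8 was 5.50-fold higher, a difference that was gone with cells thinned to 2000 UMIs (log2 ratio -0.014). Inhibitors of other proteases were among the higher genes, with Serpinb2, at 28.3 and 176 against 9.50 and 15.6 (10.4-fold, 8.75 to 12.3), and Cst6, a cystatin, at 41.8 and 266 against 36.9 and 52.6 (4.45-fold). The well 1 members thus differed little from the comparison cells in Klk7 and Cst6. Spink12 was the gene counted as lower, at 1 UMI in all members, and a count that low gives the ratio little weight. Of the epidermal lipid barrier list, 2 of 17 were higher, Elovl4, which elongates very long fatty acids (4.07-fold), and Dgat2, which makes triglycerides. Dgat2 was higher to a like degree in both wells, at 35.7 and 49.4 against 8.25 and 9.77 (4.98-fold).

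Of junction genes, 4 of 20 were counted as higher, for which the same direction in both wells was a condition. Cldn4, a tight junction claudin, was at 75.04 and 83.7 against 17.4 and 20.97 (4.14-fold), and Gjb2, the gap junction protein connexin 26, was at 78.7 and 77.9 against 17.7 and 20.4 (4.02-fold). Gjb6 was 4.94-fold higher, at 9.84 and 12.1 against 2.33 and 2.34. Cldn23 was 6.58-fold higher, at 8.61 and 18.8 against 4.30 and 1.43, with the smaller difference in well 1. Values of the wells lay closer together for Cldn4, Gjb2 and Gjb6 than for Flg, Hrnr and Dmkn of the cornified envelope. The abundant desmosomal genes moved less, with Dsp at 518 and 540 against 391 and 372. Of 22 keratinocyte transcription factors, Ovol1 alone was counted (4.17-fold, with 26 UMIs in members), and Klf4 was at 655 and 474 against 435 and 400.

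Of 25 epithelial alarm and antimicrobial genes, 5 were higher and 1 lower. Among them, 3 belong to the interleukin 36 branch, Il1f5 (13.6-fold; the gene of the receptor antagonist), Il1f9 (10.4-fold) and Il1f6 (7.44-fold), with 26 to 48 UMIs each in members. The folds of Il1f9 and Il1f6 came from well 2: in well 1 each was at 1.23 CPM, or 1 UMI, against 1.08. Lcn2 was at 108 and 194 against 40.2 and 28.4 (5.28-fold), and Ccl20 at 212 and 86.6 against 26.0 and 27.2 (4.43-fold). Ccl20 also stands on the microfold list, in which Ccl9 was the other higher gene (4.003-fold; 32.0 and 32.7 against 4.48 and 10.2) and all 7 genes compared lay above 0. On the gut and liver list Muc13, a membrane mucin, was 6.58-fold higher (23.4 and 46.5 against 4.84 and 6.92). These were 2 of 7 microfold genes and 1 of 7 gut and liver genes compared, and 0 of 9 tuft genes were counted.

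Genes lower in members against other low-Aire cells were led by Pth, parathyroid hormone, at 116 and 33.9 against 1958 and 892 (0.0428-fold), and by Chga, at 32.0 and 34.3 against 495 and 271 (0.0957-fold). In the comparison group 2 cells of well 1 and 4 of well 2 held 93.3% and 94.0% of the Pth UMIs, so these ratios describe those 6 cells rather than the group. The antigen-presentation genes were nearly level: none of 14 MHC class II and costimulation genes was counted, and Cd74 was at 6874 and 7659 against 6623 and 6876. Ccl21a, the chemokine of an mTEC subset distinct from Aire cells, was also level, at 7664 and 6516 against 7312 and 6852, although its near copies share reads. Members thus had Ccl21a at the level of the other low-Aire cells.

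Against Aire cells the keratinocyte genes separated members much less. Of 19056 genes compared, 17 were higher in members (0.0892%) and 1021 lower (5.36%), with a median log2 ratio of -0.08. Of 34 cornified envelope genes, 0 were higher and 7 lower, which were Sprr2f, Sprr2g and 5 Lce genes of families whose copies share reads, among them Lce3b with 6 UMIs in members and 456 in Aire cells. Members held 0 UMIs of Sprr2g against 105, 3 of Sprr2f against 159 and 3 of Lce1m against 259. These genes met the limit of 20 UMIs through Aire cells. The list's median log2 ratio was -0.59, although its summed level was 2314 CPM in members and 641 in Aire cells, rule genes included. This median covers 34 genes, against 20 in the comparison with other low-Aire cells, and cannot be set beside the 1.51 found there. Dmkn was at 44.3 and 329 against 101 and 68.3, lower in well 1 and higher in well 2, and Krt77 was at 6.15 and 104 against 17.2 and 13.1. Of the 34 genes, 14 had a ratio above 1.

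Krt6a led the genes that were higher than in Aire cells. It was at 12.3 and 38.5 CPM in members against 1.31 and 1.41 (23.1-fold, 15.2 to 36.2), detected in 19 members and 18 of the Aire cells, and its level was above that of Aire cells in every class of members. Krt19 was at 151 and 333 against 67.7 and 66.5 (4.29-fold). Lcn2 was at 108 and 194 against 68.8 and 21.8 (4.86-fold). Gsto1 (5.60-fold), Ecm1, an extracellular matrix protein (4.62-fold), Prss22, a tryptic protease (8.05-fold), Cysrt1 (7.16-fold), Cyp2b19, a cytochrome of keratinocytes (5.35-fold), and Il1f5 (4.44-fold) were also counted. Several of these were carried by well 2, with log2 ratios in well 1 alone of 0.04 for Ecm1, 0.01 for Klk1b16, 0.25 for Prss22, 0.19 for Il1f5 and 0.74 for Cysrt1. Those of Gsto1 and Cyp2b19 were 1.31 and 1.74. Stfa3, a stefin, was 17.5-fold higher, but its log2 ratio went from 4.13 to 0.75 without the 6 members with 5 or 6 of the genes. None of the 17 was at least 4-fold higher with at least 10 cells when well 1 stood alone. Lcn2 and Il1f5 were the 2 higher of 28 alarm and antimicrobial genes compared. Another 5 were lower, beside 5.36% of all genes, and 9 lay above 0, with a median log2 ratio of -0.83. Of 22 barrier protease, inhibitor and transglutaminase genes 0 were higher and 3 lower, and of 21 lipid barrier genes 0 and 1.

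Genes of dividing cells were lower than in Aire cells. All 7 cell cycle genes were lower, with Top2a, a topoisomerase of dividing cells, at 33.2 and 11.7 against 131 and 108 (0.150-fold) and Ube2c at 8.61 and 5.02 against 85.0 and 44.7 (0.105-fold). Ccl25, a chemokine that attracts thymocyte precursors, was at 81.2 and 108 against 628 and 867 (0.127-fold, 0.114 to 0.142). With Aire cells held to the same limit on the cortical genes as members, its log2 ratio went from -2.97 to -1.81 and it no longer passed the 4-fold rule, while the number of lower genes went from 1021 to 1140, of which 993 were shared. Of the Aire stage and Aire-dependent list, 2 of 12 were counted as lower and 10 of 12 lay below 0. The counted genes were Utf1, at 17.2 and 21.8 against 152 and 104 (0.175-fold), and Csn3, which had 2 UMIs in members and a log2 ratio of 0.10 without well 2. Csn2 was at 134 and 145 against 599 and 451 (0.288-fold) and was not counted. Aire itself was left out of the counts because the rule used it. For each gene named, both wells of members lay below both wells of Aire cells.

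Of 14 MHC class II and costimulation genes 1 was counted as lower, a share near the 5.36% of all genes, and 0 had a ratio above 1, with a median log2 ratio of -0.83 beside -0.08 over all genes compared. H2-Aa was at 2328 and 2667 CPM against 4790 and 4265 in Aire cells (0.584-fold, 0.571 to 0.597), and Cd74 was at 6874 and 7659 against 14340 and 11570. Cd83, a surface protein that stabilises MHC class II, was the counted gene, at 3.69 and 7.95 against 28.8 and 56.2 (0.143-fold) and detected in 22 members, but its log2 ratio was -1.26 with Aire cells held to the limit on the cortical genes. Ccl21a went the other way, at 7664 and 6516 against 3439 and 3801 (1.84-fold), and Ly6a, the gene of Sca1, was at 1402 and 1764 against 605 and 756 (2.35-fold). Of mimetic mTEC lists other than keratinocyte ones, muscle had 5 of 8 genes lower, ciliated 4 of 7, gut and liver 3 of 10, neuroendocrine 2 of 8, ionocyte 1 of 5, and tuft, microfold and secretory 0 of 9, 7 and 7, beside 5.36% of all genes. None of these lists had a gene counted as higher. Several of the lower genes entered the comparison through few Aire cells. Myog had 2 UMIs in members and 582 in 40 Aire cells, and Actc1 2 and 168 in 23. Dynlrb2 had 4 and 243 in 39, and Atp6v1g3 2 and 173 in 28. These shares thus depend on which group let the genes in and are not a trait of members.

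**Figure D4:**
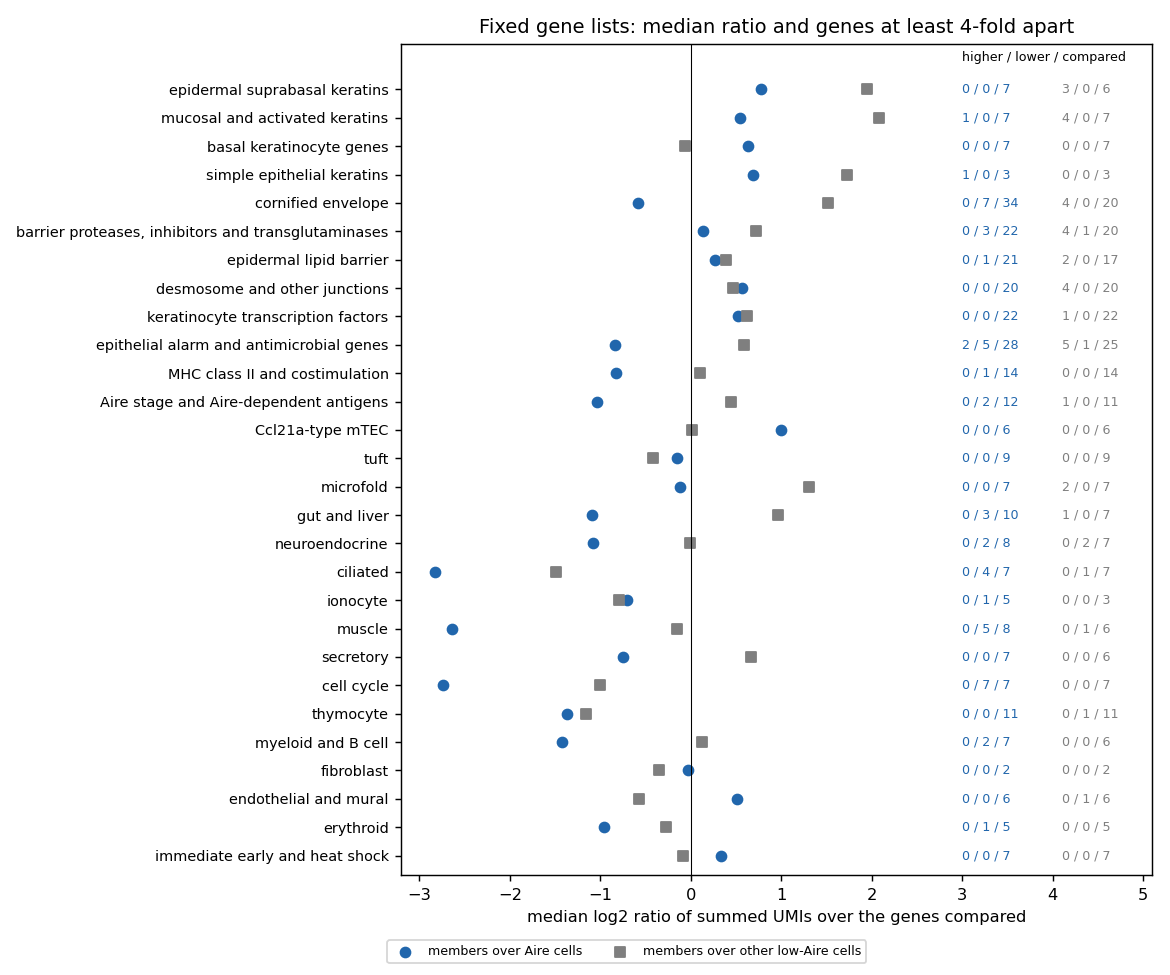
Median log2 ratio of summed CPM over the genes compared (x axis) in 28 gene lists (y axis), of members over Aire cells (circles) and over other low-Aire cells (squares); the numbers at the right give the genes at least 4-fold higher, lower and compared. The 4 keratin and envelope lists that stand at 1.5 or above against other low-Aire cells are at or below 0.78 against Aire cells, and the cell cycle list is at -2.74 against Aire cells, with 7 of 7 genes lower. The envelope list covers 34 genes against Aire cells and 20 against other low-Aire cells, so its 2 medians are not of the same genes.

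Because strong expression also occurred in Aire cells, the 60 strong members were set beside the 89 Aire cells with at least 10 UMIs of the 6 genes, a comparison added after the data were seen. Of 11421 genes compared, 11 were higher in members (0.0963%) and 110 lower (0.963%), with a median log2 ratio of -0.04. Krt6a was again the leading higher gene, 19.2-fold (9.62 to 43.6), and Prss22 (8.87-fold) and Plet1, a surface protein of epithelial progenitors (6.65-fold), were also counted. Of 15 cornified envelope genes compared, 14 had a ratio above 1, with a median log2 ratio of 1.28, yet none passed the 4-fold rule in both wells. The lower genes included Ccl25 (0.155-fold), Utf1, Csn2 (0.249-fold), Tbata (0.223-fold; the Aire cells were not held to the limit on the cortical genes), the chemokine receptor gene Ccr7, and the cell cycle genes Mki67, Top2a, Birc5 and Ube2c. Of 13 MHC class II and costimulation genes 1 had a ratio above 1, with a median log2 ratio of -0.51. The groups shared only the lower limit of 10 UMIs: the strong Aire cells were deeper, with a median of 22854 UMIs against 12737, and the 6 genes stood at 2450 CPM in them, against 4583 in strong members with 0 Aire UMIs and 5565 in those with 1.

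Against all Aire cells the strong members had 56 genes higher (0.298% of 18812) and 622 lower (3.31%). The condition of 10 cells was again unequal, at 10 of 60 strong members and 10 of 1555 Aire cells. The higher genes, named after their values were seen, included Krt6a (59.2-fold), Krt23 (11.2-fold), Anxa1, an annexin under the plasma membrane (6.58-fold), and Dapl1, a death-associated protein-like gene of epithelia. Dapl1 was at 556 CPM in strong members of well 1 and 1832 in well 2, against 184 in Aire cells over both wells (8.58-fold), and was detected in 44 of the 60. Anxa1 was at 577 and 1803 against 237. Unlike Flg, both were well above Aire cells in strong members of either well.

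Markers of other cell types were present in all groups. Of 11 thymocyte genes 0 were higher than in Aire cells or in other low-Aire cells, and their summed level was 57.5 CPM in members, 126 in Aire cells and 135 in other low-Aire cells. The myeloid and B cell list summed to 107, 279 and 80.2. The endothelial and mural list was at 1320, 688 and 1254 and included Acta2 at 792 and 789 in members against 185 and 361 in Aire cells, and the fibroblast list at 853, 663 and 921, of which the collagen genes and Dcn entered the epithelial condition. No defining marker of these types was at 0 in members. The part of these cells, or of their free RNA, in the results was not tested. The median share of mitochondrial UMIs was 5.99% in members, 6.89% in Aire cells and 8.78% in other low-Aire cells. A doublet caller marked 18 cells of the series at its automatic limit, under 0.5% of them, and at the expected rate it removed 253 cells of which 5 were members.

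Surface proteins were an independent readout of the same cells, and the rule did not use them. Each antibody carries a DNA barcode of 15 bases, and the barcodes of the 6 tags on which the comparison turned are shown because their counts are what was measured.
MHCII: ggtcaccagtatgat
CD80: gacccggtgtcattt
Sca1: ttcctttcctacgca
Podoplanin: gggcgatttagtgtg
CD49a: ccattcatttgtggc
CD9: tagcagtcactccta
Tag counts were divided by the total of the cell, scaled to the mean total, and put on a log2(x + 1) scale, and a tag was counted when the group means differed by more than 0.5 in the same direction in both wells.

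Members lay between Aire cells and other low-Aire cells on most of the tags that separated these groups. Sca1, a surface protein of the Ly6 family, had a mean of 7.98 in members of well 1 and 8.23 in well 2, against 6.32 and 6.502 in Aire cells and 8.50 and 8.59 in other low-Aire cells. The difference from Aire cells was 1.66 and 1.73, below the SD over single cells of 2.00 and 1.96 in members. Podoplanin, a mucin-like protein of immature mTEC, was at 4.20 and 3.795 in members against 2.90 and 2.81 in Aire cells and 4.82 and 4.44 in other low-Aire cells. CD49a, an integrin chain, was at 3.59 and 3.18 against 2.25 and 2.42, and 4.20 and 4.06. CD9, a tetraspanin, was at 4.77 and 4.35 against 3.52 and 3.60. Over all members these 4 signals, relative to the cell's total, were thus above those of Aire cells in either well. In the strong members the differences were 0.69 and 1.78 for Sca1, but -0.011 and 0.40 for Podoplanin, 0.21 and 0.23 for CD49a and 0.23 and 0.52 for CD9, so that of these 4 Sca1 alone was still counted. With CD63 and EpCAM1, 6 of 27 tags were counted as higher than in Aire cells (22.2%).

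MHCII was the only tag counted as lower than in Aire cells (1 of 27, 3.7%). It was at 10.7 and 10.6 in members against 11.3 and 11.1 in Aire cells and 10.5 and 10.5 in other low-Aire cells. The difference lay near the limit of 0.5, at -0.56 and -0.51, and without the 6 members that held 5 or 6 of the genes no tag was counted as lower. In the strong members it was -0.12 and -0.64 and was not counted, while CD40 (-0.71 and -1.04) and CD54 (-0.86 and -0.53) were. Fibroblast-rule cells were at 10.1 and 10.2 with a median of only 71 and 54 MHCII counts, so the scaled value hardly fell in cells with little signal. The raw MHCII counts differed far more, with a median of 1044 and 684 counts per member, 5880 and 3848 per Aire cell and 563 and 375 per other low-Aire cell, and they made up 52.1% and 49.9% of all tag counts of members. The total of tag counts differed between the groups as well, with medians of 3955 and 2924.5 in members, 10352 and 7056 in Aire cells and 2379 and 1612 in other low-Aire cells. A difference relative to the total therefore depends on the MHCII signal, and with a centred log-ratio (CLR) the number of tags higher than in Aire cells went from 6 to 2, Sca1 and Podoplanin, and the number lower from 1 to 4.

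Against other low-Aire cells CD80, a costimulatory ligand of mature mTEC, was the only tag counted as higher (1 of 27, 3.7%). It was at 3.66 and 3.34 in members against 2.97 and 2.77, and at 4.04 and 3.82 in Aire cells. With only the members at 0 Aire UMIs, CD80 was not counted. CD49a, CD200, HVEM (CD270) and Podoplanin were lower (14.8% of the tags), by 0.62 and 0.88 for CD49a and 0.62 and 0.65 for Podoplanin. With CLR the split against other low-Aire cells was 4 tags higher and 0 lower and HVEM (CD270) turned, while CD49a, CD200 and Podoplanin stayed below 0 in both wells. The strong members were farther from the other low-Aire cells in the same direction, with differences of 1.03 and 1.13 for CD80, -1.93 and -1.23 for Podoplanin and -1.75 and -1.42 for CD49a. The lectin UEA1, which the study used to mark mTEC in general, was 0.30 and 0.20 above Aire cells. It was 0.26 and 0.21 above other low-Aire cells, under the limit of 0.5 in both. The antibody to Ly6D, whose transcript was abundant in strong members, gave counts in 0% and 0.926% of members and in at most 0.504% of cells of the other groups, so the protein could not be read.

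**Figure D5:**
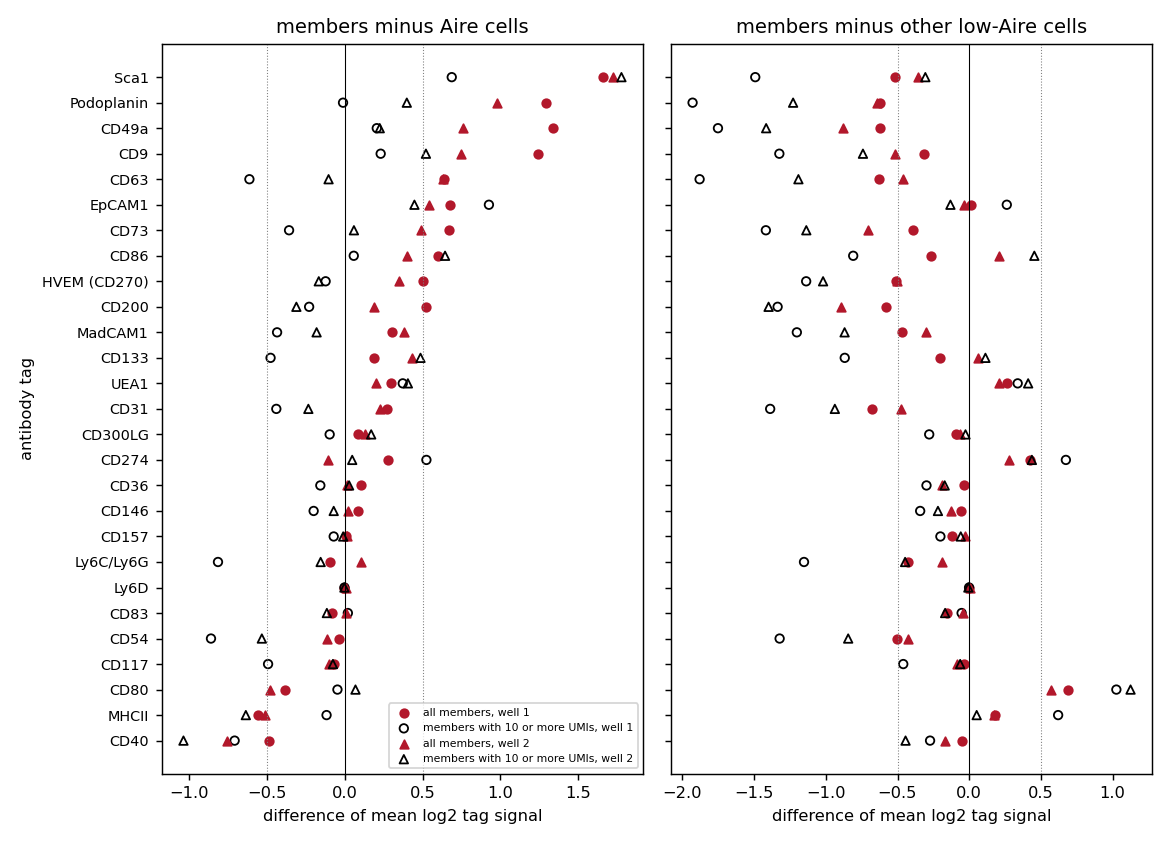
Difference of the mean log2 tag signal (x axis) between members and Aire cells (left) or other low-Aire cells (right) for 27 antibody tags (y axis), in all members (filled) and in those with 10 or more UMIs of the rule genes (open), circles for well 1 and triangles for well 2; dotted lines mark 0.5. Sca1 is farthest to the right on the left side, at 1.66 and 1.73, and CD80 on the right side, at 0.69 and 0.57.

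By the same rule the 1-week thymus held 30 cells, 14 and 16 by well, of 2674 epithelial cells (1.12%) and of 550 low-Aire cells (5.45%, 3.71 to 7.70). The share of low-Aire cells was below the 6.27% of 1-week fibroblast-rule cells with at least 2 of the genes, and the shares at 2000 UMIs were 1.27% and 0.339%. Over all 1-week fibroblast-rule cells Sbsn was at 27.8 CPM. Members of 1 week were deeper, with a median of 15590.5 UMIs. Krtdap was at 182 CPM in them, Flg at 19.2 and Krt6a at 12.3, the last in 1 cell. Rptn was at 275, with 172 of its 201 UMIs in 1 cell. The ages differed in pool and depth, which cannot be told apart from age.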

How the data were processed

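Droplet CITEseq libraries of thymic stroma from 16-week and 1-week mice were used, 2 wells per age, and the 2 wells held cells of 1 pool. The authors deposited whole-number counts: UMI counts per gene and cell, and counts per antibody tag and cell, made with STARsolo 2.7.9a on mm10 with an Ensembl annotation for the transcripts. No cell had under 2000 UMIs, the lowest total in the files. The labels name version 2 of the droplet kit and the study's methods another version, which was not settled. Gene symbols were matched for 55141 of 55487 gene IDs. Groups were set by the UMI conditions given with the results, UMIs were summed per group and well, and ratios of CPM were given with exact conditional binomial intervals, and shares with Clopper-Pearson intervals, both at 95%. A group at 0 was set to a floor of 3 UMIs. No test was run because each age was 1 sample. The 4-fold rule stands in place of a test. The ratio step was tested on simulated data. Cells were thinned to 2000 UMIs with a fixed seed for shares at equal depth. Tags were scaled by the cell's total, and CLR was an alternative. Doublets were scored with Scrublet in scanpy 1.11.5 per well, and TMM factors came from edgeR 4.0.16. The named genes were the rule genes and Krt10, the 12 genes per direction whose counting interval lay farthest from equality, and in each of 28 lists up to 4 genes past the 4-fold rule with the 2 most abundant others. Not every gene that this rule names is reported here. Members, lists and rules were chosen with earlier results of these data known. Python 3.11.15, numpy 2.4.6, scipy 1.17.1, pandas 2.3.3, matplotlib 3.10.9 and R 4.3.3 were used.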

Additional observations from a re-analysis of the deposited data

How the results depend on the processing

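No paired analysis was possible because each comparison came from 1 pool of cells and from no test, and the 2 wells are repeats of the same tube. The share of members among epithelial cells, 6.96%, was 1.57% with at least 3 of the 6 genes, 26.5% with at least 1, 3.04% at 2000 UMIs, 1.43% with at least 10 UMIs of the genes, and 6.33% to 7.22% with a well left out. Against Aire cells, the 17 higher genes became 46 with at least 3 of the 6 genes, 29 with the mean over cells, 72 without the Aire cells that held 2 or more of the genes, 56 with strong members only, 11 with strong cells on both sides, and 17 to 41 with a well left out. The 17 of well 1 alone shared 0 genes with the 17 of both wells. The 1021 lower genes became 505 with at least 3 genes, 277 at 2000 UMIs, of which 105 were shared, 622 with strong members only, 110 with strong cells on both sides, and 576 to 899 with a well left out. Against other low-Aire cells, the 141 higher genes became 93 with the mean over cells, 36 at 2000 UMIs, 70 with members at 0 Aire UMIs, and 35 to 121 with a well left out. The 212 lower genes became 328 with the mean over cells, 137 at 2000 UMIs, 65 with at least 50 UMIs, 389 with strong members only, and 193 to 217 with a well left out. Leaving out doublets, TMM scaling and no minimum of UMIs kept these 4 counts within 1.5 times.

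Of 27 tags, the 6 higher than in Aire cells became 2 with CLR or without MHCII and UEA1 in the total, 1 with at least 3 genes or with strong members only, and 6 to 10 with a well left out. The 1 lower became 4, 4, 2 with strong members, 0 without the 6 members with 5 or 6 genes, and 1 to 2 with a well left out. Against other low-Aire cells, the 1 higher became 4 with CLR or without MHCII and UEA1 in the total and 0 with members at 0 Aire UMIs. The 4 lower became 0 and 0, 9 with at least 3 genes, 10 with strong members, 2 with members at 0 Aire UMIs, and 6 to 8 with a well left out. The difference from Aire cells turned for CD63, to -0.18 with at least 3 genes and -0.36 with strong members, and for EpCAM1, to -0.091 with CLR and 0 without MHCII and UEA1 in the total. That from other low-Aire cells turned for HVEM (CD270), to 0.021 with CLR.

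Direction turned for few genes, nearly all at 0 to 2 UMIs in members, where the floor of 3 UMIs sets the log2 ratio. At 2000 UMIs it was 0.82 for Sprr2g, 0.99 for Spink12, 0.82 for Actc1 and 0.82 for Cd79a against Aire cells, and 0.48 for Col13a1, -0.014 for Klk8 and 0.67 for Myog against other low-Aire cells. With at least 3 genes it was 0.32 for Spink12, 0.37 for Cdx2 and 0.24 for Cd79a, and with strong members 0.24, 0.29 and 0.16. With a well left out it ran from -3.48 to 0.91 for Lcn10, -4.88 to 3.50 for Obp1a, -4.61 to 1.33 for Gm19935, -2.33 to 1.04 for Sprr2g, -2.85 to 1.04 for Spink12, -3.77 to 0.10 for Csn3, -1.68 to 0.69 for Cdx2 and -2.06 to 1.69 for Cd79a. Against other low-Aire cells it ran from -2.38 to 0.66 for Pou2f2, -1.73 to 0.19 for Col13a1, -2.94 to 1.56 for Ccl4 and -2.63 to 0.66 for Myog. The cause was not tested.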

Other observations

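Of the genes that led the difference between members and other low-Aire cells, Pth came from very few cells. In well 1, 2 other low-Aire cells with at least 10 Pth UMIs carried Pth at 306500 and Chga at 72300 CPM, and in well 2, 4 such cells carried 211800 and 63100. Pth was nevertheless detected in 115 of 293 members. These cells are described by their transcripts and were not placed in a cell type.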
